A study of Mus musculus with 6 samples.

Results

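Complement genes of stroma and myeloid cells were described as 9 genes taken by name from the 34745 genes listed for this experiment. They were *C3*, *Cfb*, *C1ra*, *C1s1*, *C4b*, *Serping1*, *Cd55*, *C3ar1* and *C5ar1*, and each name matched 1 row. RNA-seq was performed on cardiac fibroblasts from the left ventricle of KDM5B-KO mice and littermate wild-type (WT) mice, 8 to 10 weeks old, on Day 7 after myocardial infarction (MI), with 3 libraries per genotype (KO-1 to KO-3 and WT-1 to WT-3, the order in which values are given). All mice in both groups had been infarcted, no sham-operated library was used here, and the knockout removed the bases of *Kdm5b* encoding the JmjC domain of this histone demethylase in the whole animal. The labels do not say whether libraries of one genotype came from separate mice, so the p-values measure the spread between these libraries, which may be technical.

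Complement is a cascade of plasma proteins made by liver and, locally, by stromal and myeloid cells. Its classical branch starts when C1q, carrying the proteases C1r and C1s, binds a surface and C1s cleaves C4 and C2, and its alternative branch uses factor B to amplify deposition of C3. All branches meet at cleavage of C3, and the released fragments C3a and C5a signal to C3ar1 and C5ar1 on myeloid cells, while Serping1 (C1 inhibitor) and Cd55 (decay-accelerating factor) restrain the cascade. In injured heart, fibroblasts are a known source of C3, C1r, C1s and C1 inhibitor, and infiltrating macrophages and neutrophils carry the anaphylatoxin receptors.

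Total counts ranged from 12025403 to 15329427 per library, and 14084 genes passed the count filter. The edgeR quasi-likelihood test called 30.2% of these genes at a Benjamini-Hochberg adjusted p under 0.05, 17.7% higher and 12.5% lower in KO. *Kdm5b* itself had 98.1, 107 and 105 CPM (counts scaled to library size) in KO and 108, 129 and 123.3 CPM in WT. Its log2 fold change was -0.22 (SE 0.07, edgeR adjusted p = 0.0574), so its whole-gene CPM was lower in each KO library without passing the test. In FPKM (counts also scaled to gene length) the genotypes overlapped, with 5.53 in KO-2 and 5.51 in WT-1. Counts over the whole gene do not show the deletion. By Q-PCR, the authors found almost no *Kdm5b* mRNA in KO cardiac fibroblasts, and why the measures differ was not tested. Fibroblast markers such as *Col1a1* were abundant in every library, and the 18 of them had a median log2 fold change of -0.41, with 15 lower and none higher. Macrophage markers (median -0.39, with 8 of 16 tested lower and 2 higher) and cardiomyocyte markers (median -0.41) were also present in these fibroblast preparations, the T lymphocyte marker *Cd3e* was at 0 counts in all 6 libraries, and endothelial markers had a median of 2.55, with 13 of 15 higher in KO. In such bulk samples, fewer cells of a type and less RNA per cell cannot be told apart, and the part of these marker differences in the values given here was not tested.

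All 9 complement genes passed the filter. *Cd55* was higher and *Serping1* was lower in KO, and the other 7 did not pass the test. The 2 called genes are 22.2% of the 9, against the 30.2% called over all genes tested. The libraries of the 2 genotypes did not overlap in CPM for 4 of the 9 (44.4%), namely *C3*, *Serping1*, *C3ar1* and *Cd55*, against 47.0% of all genes tested, so neither share stood above that of the other genes. The median log2 fold change of the 9 genes was -0.18, beside -0.02 over all genes tested.

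**Figure D1:**
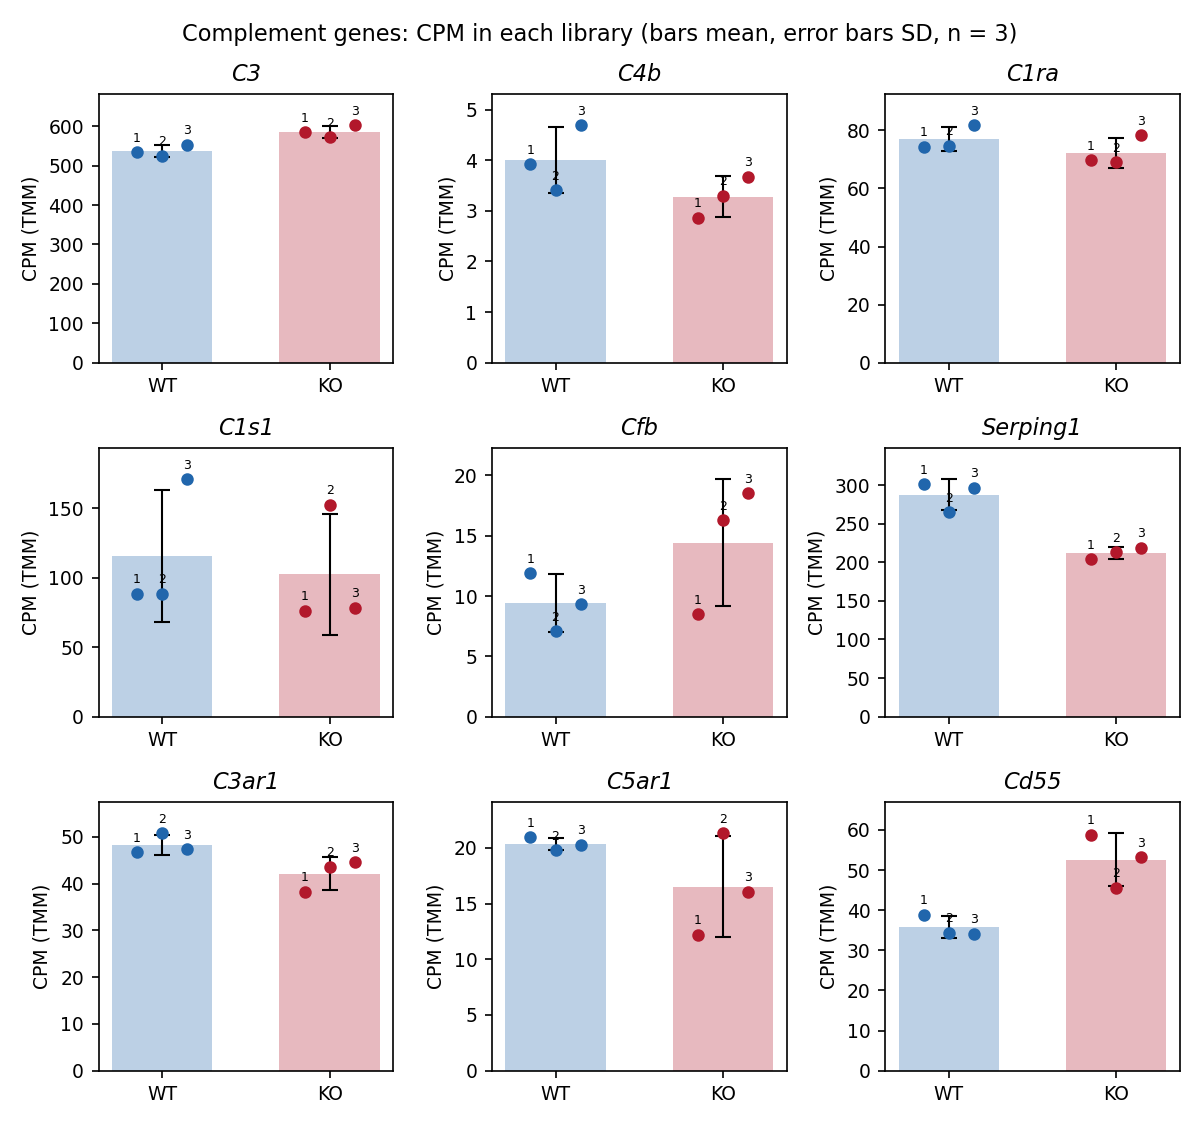
CPM of each of the 9 complement genes in each library, by genotype, with points numbered by library, bars for the mean and error bars for the SD (n = 3). The KO libraries lay above the WT libraries for *Cd55* (45.6 to 58.8 against 34.1 to 38.9) and below them for *Serping1* (204.3 to 218.8 against 264.6 to 301.4), and 1 library in each genotype stood apart for *C1s1*.

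Levels between genes were compared in FPKM, in which counts are scaled to both gene length and library size. In KO, *C3* was the most abundant of the 9 at 104.3 ± 3.10 FPKM (SD, n = 3), above *Serping1* at 75.7 ± 2.46 FPKM. In WT, the ranges of *Serping1* (100.2 ± 7.21 FPKM) and *C3* (93.4 ± 2.56 FPKM) overlapped, although *Serping1* was above *C3* within each WT library. *C1ra* (24.5 FPKM in KO, 25.5 FPKM in WT) and *C1s1* (20.2 FPKM in KO, 22.4 FPKM in WT) came next and overlapped each other in both genotypes. *C3ar1* and *Cd55* followed, overlapping in KO at 9.90 and 8.54 FPKM but separate in WT at 11.1 and 5.68 FPKM. *C5ar1* and *Cfb* overlapped in KO at 3.32 and 3.04 FPKM and were separate in WT at 3.998 and 1.94 FPKM, a rank of *Cfb* that leaves out the counts given to an overlapping gene described with *Cfb*, in unequal shares between libraries. *C4b* was lowest at 0.527 FPKM in KO and 0.629 FPKM in WT. The convertase substrate C3 and the C1 inhibitor were thus measured at levels above at least 96.7% of the genes tested in KO, while *C4b* was above 10.9% of them.

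*C3*, at which all complement branches converge, lies on the minus strand at chr17:57203970-57228136 (GRCm38). It had 584.3, 571.4 and 602.2 CPM in the KO libraries and 533.3, 525.1 and 552.8 CPM in the WT libraries. The lowest KO library was above the highest WT library, and the shift was small, at 1.09-fold. The log2 fold change was 0.13 (SE 0.04) and missed the threshold (edgeR adjusted p = 0.0555, exact two-sided permutation p = 0.1, the smallest that 3 against 3 libraries allow). *C3* passed the threshold under 7 of 16 alternative settings, one of them leaving out KO-2 (adjusted p = 0.0430), and its log2 fold change lay between 0.08 and 0.55 over all 16. The genes whose profile over the 6 libraries was most like that of *C3*, among 4135 genes of at least 10 FPKM, were *Dhx9*, *Akirin1* and *Pdcd11*, with root mean square log2 differences of 0.0115, 0.0157 and 0.0180.

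*Cfb* encodes factor B, the protease subunit of the alternative pathway convertase, at chr17:34856374-34862518 on the minus strand. It was counted 104, 217 and 287 times in the KO libraries and 170, 104 and 131 times in the WT libraries, that is 8.52, 16.3 and 18.5 CPM against 11.9, 7.10 and 9.31 CPM. KO-2 and KO-3 were highest, but KO-1 lay within the WT range. This gave a log2 fold change of 0.62 (SE 0.29, edgeR adjusted p = 0.142), and without KO-1 it was 0.89 (adjusted p = 0.0182).

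The counts of *Cfb* cannot be read alone, because the annotated gene *Gm20547* (chr17:34856412-34882042) lies on the same strand and runs over nearly all of *Cfb* and part of *C2*. Of the 150-base windows of the *Cfb* transcript Cfb-202, 80.7% were identical in the *Gm20547* transcript, which shared 2248 aligned bases with it. The pair below is shown because a read from this stretch fits both genes. It is 60 bases of exon 2 of *Cfb* and of exon 14 of *Gm20547*, the same genomic bases at chr17:34861905-34861964 on the minus strand (GENCODE M21 transcripts, GRCm38), and no base is in capitals because none differs.
Cfb: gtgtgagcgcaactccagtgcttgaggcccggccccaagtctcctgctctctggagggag
Gm20547: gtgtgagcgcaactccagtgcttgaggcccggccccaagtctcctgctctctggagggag

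*Gm20547* was counted 146, 10 and 27 times in the KO libraries and 219, 200 and 217 times in the WT libraries. It took 58.4% of the counts of the pair in KO-1 and 56.3% to 65.8% in the WT libraries, but 4.41% and 8.60% in KO-2 and KO-3, the same 2 in which *Cfb* was highest. Summed over both genes, the counts were 250, 227 and 314 in KO and 389, 304 and 348 in WT. As CPM, the sums were 20.5, 17.0 and 20.3 in KO and 27.2, 20.8 and 24.7 in WT, so every KO library then lay below every WT library. The fold change of the sum turned the other way, at log2 -0.33 (SE 0.12, edgeR adjusted p = 0.0766, exact two-sided permutation p = 0.1). Only 56.1% of the *Gm20547* windows were identical in *Cfb*, and *Gm20547* also runs over part of *C2*, so the sum can hold reads that are not from *Cfb*. Neither direction passed the test, and these counts gave no settled direction for *Cfb*. Why the share of *Gm20547* differed between libraries was not tested.

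**Figure D2:**
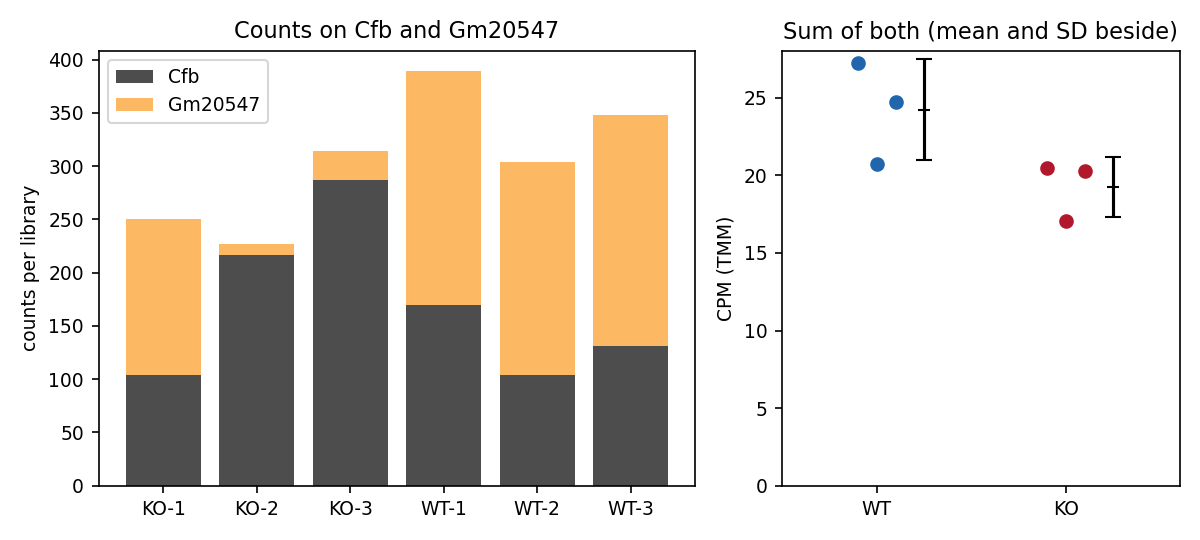
Left, counts given to *Cfb* and to the overlapping gene *Gm20547*, stacked, in each library. Right, the sum of both in CPM by genotype, with the mean and SD (n = 3) beside the points; the sum was 19.3 ± 1.93 CPM in KO and 24.2 ± 3.27 CPM in WT, while *Gm20547* took few counts in KO-2 and KO-3 alone.

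Of the classical pathway, *C1ra* encodes the protease C1r, which activates C1s (chr6:124512405-124523443, plus strand). It had 69.7, 69.1 and 78.3 CPM in KO and 74.4, 74.8 and 81.8 CPM in WT. The ranges overlapped, with KO-3 and WT-3 highest in each genotype. The difference was -0.09 on the log2 scale (SE 0.07, edgeR adjusted p = 0.377). The near-copy *C1rb*, identical to 26.3% of the 150-base windows of *C1ra*, held at most 10 counts in a library, and adding it left the log2 fold change at -0.08.

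*C1s1* encodes C1s, the protease that cleaves C4 and C2 (chr6:124530345-124542359, minus strand). It had 76.2, 152.4 and 78.4 CPM in KO and 88.3, 88.4 and 170.7 CPM in WT. KO-2 and WT-3 stood far above the other 4, at 1.97 and 1.93 times the mean of the other libraries of their genotype. The coefficient of variation was 42.4% in KO and 41.0% in WT, against 7.10% and 5.37% for its partner protease *C1ra*. No other tested gene with a mean above 3 CPM was more than 1.5 times higher in both of these libraries than in every other library, a search made after the *C1s1* values were seen. The log2 fold change between genotypes was -0.18 (SE 0.33, edgeR adjusted p = 0.715), and it ran from -0.58 without KO-2 to 0.21 without WT-3. As a description only, libraries were also compared within like levels, a split made from the *C1s1* values themselves. The high KO library was 0.893 times the high WT library, and the other 2 KO libraries averaged 0.875 times the other 2 WT libraries. Why these libraries stood apart was not tested.

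*C1s2*, the neighbouring near-copy of *C1s1*, was counted 40, 41 and 37 times in KO and 1, 3 and 5 times in WT. It was higher in every KO library (log2 fold change 3.73, SE 0.41, edgeR adjusted p = 0.000384), though at these low WT counts the size is loosely set. The sum of both genes gave a log2 fold change of -0.14 (adjusted p = 0.775). Only 2.86% of the 150-base windows of *C1s1* were identical in *C1s2*, and aligned bases were 96.1% identical. The 60 bases in which the genes differ most are shown because reads there can be told apart; the 11 differing bases are in capitals. They lie in exon 12 of *C1s1* at chr6:124531470-124531529 and in exon 11 of *C1s2* at chr6:124625692-124625751, both on the minus strand.
C1s1: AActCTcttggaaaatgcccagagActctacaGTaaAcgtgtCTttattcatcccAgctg
C1s2: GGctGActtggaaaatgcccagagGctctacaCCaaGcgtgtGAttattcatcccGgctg

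*C4b* encodes C4, the substrate of C1s, at chr17:34728380-34743882 on the minus strand. It was counted 35, 44 and 57 times in KO and 56, 50 and 66 times in WT, that is 2.87, 3.30 and 3.68 CPM against 3.92, 3.41 and 4.69 CPM. KO-3 exceeded the lowest WT library, so the groups overlapped, with a log2 fold change of -0.28 (SE 0.19, edgeR adjusted p = 0.310). Its near-copy *C4a*, 96.2% identical over the aligned transcript, was counted 25, 38 and 31 times in KO and 22, 17 and 16 times in WT, with a log2 fold change of 0.84 (SE 0.26, adjusted p = 0.0437). Only 8.26% of the 150-base windows of *C4b* were identical in *C4a*. The log2 fold change of *C4b* stayed below 0 with each library left out (-0.39 to -0.15), without passing the test, and the sum of both genes was at 0.08 (adjusted p = 0.739). The 60 bases of exon 21 with most differences between the copies are shown with the 13 differing bases in capitals, *C4b* at chr17:34735430-34735489 and *C4a* at chr17:34816086-34816145, both on the minus strand.
C4b: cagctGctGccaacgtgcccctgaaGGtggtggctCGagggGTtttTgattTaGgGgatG
C4a: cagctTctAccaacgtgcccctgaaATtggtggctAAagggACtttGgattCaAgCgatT

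*Serping1* encodes C1 inhibitor, the serpin that inactivates C1r and C1s (chr2:84765387-84775444, minus strand). It had 204.3, 213.0 and 218.8 CPM in KO and 301.4, 264.6 and 296.5 CPM in WT. All KO libraries lay below all WT libraries, and the means, 212 ± 7.31 and 288 ± 20 CPM (SD, n = 3), gave a ratio of 0.738. The log2 fold change was -0.44 (SE 0.06, edgeR adjusted p = 0.00117, exact two-sided permutation p = 0.1). It stayed past the threshold under 14 of 16 alternative settings. Under the other 2, which set fibroblast or macrophage markers equal between libraries, it was -0.02 and -0.05 and did not pass. The fibroblast markers themselves had a median of -0.41, and the ratio of *Serping1* to *Col1a1* FPKM averaged 0.0418 in KO and 0.0417 in WT, with overlapping libraries. The fall of *Serping1* was thus of the size of that of the fibroblast markers. It was also near the medians of the macrophage (-0.39) and cardiomyocyte (-0.41) markers. The part of any of these markers in the *Serping1* difference was not tested.

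*Cd55* encodes decay-accelerating factor, a membrane protein that breaks up the C3 convertases on the cell that carries it (chr1:130439027-130462744, minus strand). It had 58.8, 45.6 and 53.3 CPM in KO and 38.9, 34.4 and 34.1 CPM in WT. Every KO library was above every WT library, with means of 52.6 ± 6.62 and 35.8 ± 2.69 CPM (SD, n = 3), a 1.47-fold difference, or a log2 fold change of 0.55 (SE 0.10, edgeR adjusted p = 0.00482, exact two-sided permutation p = 0.1). *Cd55* passed the threshold under all 16 alternative settings, with log2 fold changes from 0.47 to 0.98, and was the only one of the 9 genes to do so. Endothelial cells, which carry Cd55 in many tissues, had markers that moved the same way: the summed FPKM of the 15 endothelial markers was 313.2 to 424.2 in KO and 84.6 to 85.3 in WT. The endothelial marker *Pecam1* rose far more than *Cd55*, so that the FPKM ratio of *Cd55* to *Pecam1* was 0.122 in KO and 1.31 in WT. The part of the endothelial markers in the *Cd55* difference was not tested.

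*C3ar1* encodes the receptor for C3a, carried by macrophages and other myeloid cells (chr6:122847138-122856161, minus strand). It had 38.2, 43.7 and 44.6 CPM in KO and 46.7, 50.8 and 47.4 CPM in WT. The KO libraries all lay below the WT libraries, by a narrow gap. The log2 fold change was -0.19 (SE 0.08) and did not pass the test (edgeR adjusted p = 0.0945, exact two-sided permutation p = 0.1). Against the macrophage marker *Adgre1*, the FPKM ratio of *C3ar1* was 0.266, 0.285 and 0.272 in KO and 0.240, 0.258 and 0.225 in WT, so relative to this marker the order of the genotypes was the opposite. With libraries scaled to the macrophage marker list, the log2 fold change of *C3ar1* was 0.19 and did not pass (edgeR adjusted p = 0.118). The genes with the profile most like that of *C3ar1* were *Heg1*, *Hmgcs1* and *Myo1c*, with root mean square log2 differences of 0.0206, 0.0271 and 0.0291 over the 6 libraries.

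*C5ar1*, the C5a receptor of neutrophils and macrophages (chr7:16246743-16259540, minus strand), had 12.2, 21.3 and 16.1 CPM in KO and 20.9, 19.8 and 20.3 CPM in WT. The WT libraries were close together, whereas the KO libraries ranged from below them all to above them all. The coefficient of variation was 27.7% in KO and 2.82% in WT. Between genotypes, the log2 fold change was -0.30 (SE 0.18, edgeR adjusted p = 0.242), and without KO-2 it was -0.51 (adjusted p = 0.0278). The summed macrophage markers ran from 885.9 to 913.9 FPKM in KO and from 1093 to 1180 FPKM in WT, while the summed neutrophil markers ran from 15.6 to 20.1 FPKM in KO and from 11.7 to 14.1 FPKM in WT. Of the 12 neutrophil markers 6 were tested, 2 of them higher and 1 lower in KO, and their median log2 fold change was -0.14. Mast cell markers, of which *Cpa3*, *Fcer1a* and *Tpsb2* were at 0 counts, summed to 6.85 to 7.40 FPKM in KO and 1.83 to 1.92 FPKM in WT, with 2 of 4 tested higher and a median log2 fold change of 1.4. The part of these markers in the receptor values was not tested. Relative to *Adgre1*, *C5ar1* overlapped between genotypes (ratio of means 1.06).

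Because a ratio of genes within one library does not depend on scaling between libraries, ratios chosen after the values were seen are given as a description. The FPKM ratio of *C3* to *Serping1* was 1.43, 1.34 and 1.37 in KO and 0.882, 0.990 and 0.930 in WT. *C3* was thus above its neighbour in level in each KO library and below it in each WT library, a 1.48-fold difference in the ratio. The ratio of *C1ra* to *Serping1*, a protease to its inhibitor, was 0.324, 0.308 and 0.340 in KO and 0.235, 0.269 and 0.262 in WT, 1.27-fold higher in KO without overlap. *Col1a1* itself was lower in KO (log2 fold change -0.44, SE 0.07, edgeR adjusted p = 0.00284), which raises any ratio to it. Relative to *Col1a1*, *C3* was 1.49-fold, *C1ra* 1.28-fold and *Cd55* 2.01-fold higher in KO, each without overlap between libraries. By itself, *C1ra* was 0.940-fold in KO, so its higher ratio came from the fall of *Col1a1*. The share of all genes with such ratios not overlapping was not computed. The ratio of *C1s1* to *C1ra* overlapped between genotypes, with KO-2 (1.29) and WT-3 (1.22) high.

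**Figure D3:**
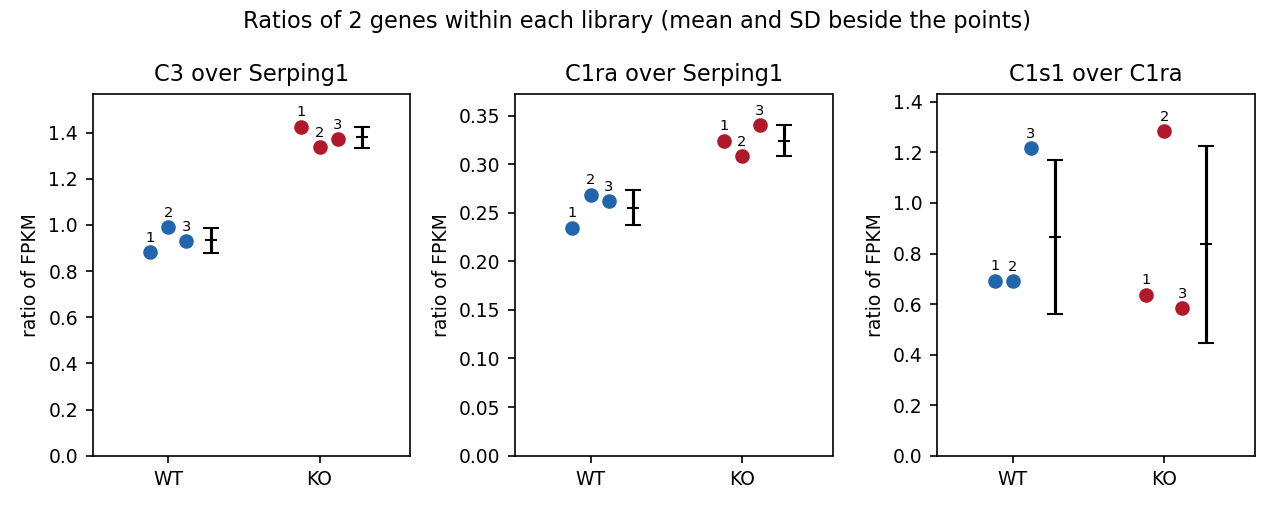
Ratio of FPKM values of pairs of complement genes within each library, by genotype, with points numbered by library and the mean and SD (n = 3) beside them. The ratio of *C3* to *Serping1* was 1.34 to 1.43 in KO and 0.882 to 0.990 in WT, and that of *C1s1* to *C1ra* was high in KO-2 and WT-3.

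The other genes of the pathway were taken as a list of 51 rows, of which 21 passed the count filter. Of these, 3 were higher and 9 were lower in KO, and 9 did not pass the test. The called share was 57.1%, beside 30.2% over all genes tested, and the median log2 fold change was -0.30, beside -0.02. The macrophage and fibroblast markers had medians of -0.39 and -0.41 in the same libraries, the C1q genes and *Itgam* are also in the macrophage list, and the part of these markers in the count was not tested. Under scaling to the fibroblast or the macrophage markers, none of the 9 lower genes remained called lower. Over all 14084 genes tested, only 41 and 46 were called lower under these scalings, so this loss was not particular to complement genes. Leaving out WT-3 or KO-3 left 4 or 5 complement genes called lower.

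Among the initiators, the 3 chains of C1q, made chiefly by macrophages, were lower together. *C1qb* had 22.8, 25.9 and 22.0 CPM in KO and 33.3, 36.7 and 37.5 CPM in WT, with a log2 fold change of -0.60 (SE 0.09, edgeR adjusted p = 0.00171). *C1qa* and *C1qc* had log2 fold changes of -0.45 (adjusted p = 0.0194) and -0.49 (adjusted p = 0.0100), and the libraries of the genotypes did not overlap for any of the 3. *C2*, which supplies the protease of the classical convertase and partly overlaps *Gm20547*, was at -0.27 and did not pass (adjusted p = 0.149). Of the lectin pathway, the scavenger receptor *Colec12* was lower at -0.37 (adjusted p = 0.00358), and the protease gene *Masp1* was at -0.26 (adjusted p = 0.139). *Cfp*, which encodes properdin, the stabiliser of the alternative convertase, was lower at -0.45 (adjusted p = 0.00301).

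Of the soluble regulators, *Clu* (clusterin) was lower, at -0.33 (edgeR adjusted p = 0.0274), and *Cfi* (factor I) was at -0.36 without passing (adjusted p = 0.0655). Of the membrane regulators other than *Cd55*, *Cr1l* was lower at -0.30 (adjusted p = 0.0356), whereas *Cd59a*, which blocks the membrane attack complex, was at 0.39 without passing (adjusted p = 0.0726). *Cd46* was at 0.17 and did not pass (edgeR adjusted p = 0.653). Of the receptors, the integrin chain *Itgb2* was lower at -0.34 (adjusted p = 0.0177). Its partner chain *Itgam* was listed under a pair of gene IDs, neither of which passed, and the counts moved between the IDs from library to library. Summed, *Itgam* had 52.0, 56.5 and 59.3 CPM in KO and 70.1, 69.9 and 70.7 CPM in WT, with a log2 fold change of -0.33 (SE 0.06, adjusted p = 0.00565). *Itgax*, at -0.14 (edgeR adjusted p = 0.545), and *C5ar2*, at 0.0074 (adjusted p = 0.99), did not pass. *Cd93*, named as a C1q receptor and known as an endothelial protein, was higher, with 242, 169.3 and 213.7 CPM in KO and 49.8, 49.1 and 48.6 CPM in WT (log2 fold change 2.08, SE 0.12, adjusted p = 1.5e-05), in the libraries in which the endothelial markers were higher.

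The 7 terminal pathway genes all fell below the filter. *Hc*, which encodes C5, the source of the ligand of *C5ar1*, had at most 6 counts in a library, and *C6*, *C7* and *C8b* had none. Of the 30 complement rows below the filter, 22 had no more than 3 counts in every library, and the highest count of any was 12. Transcripts of the membrane attack complex were thus at or near the limit of detection, since 3 counts correspond to 0.249 CPM in the smallest library before TMM scaling.

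**Figure D4:**
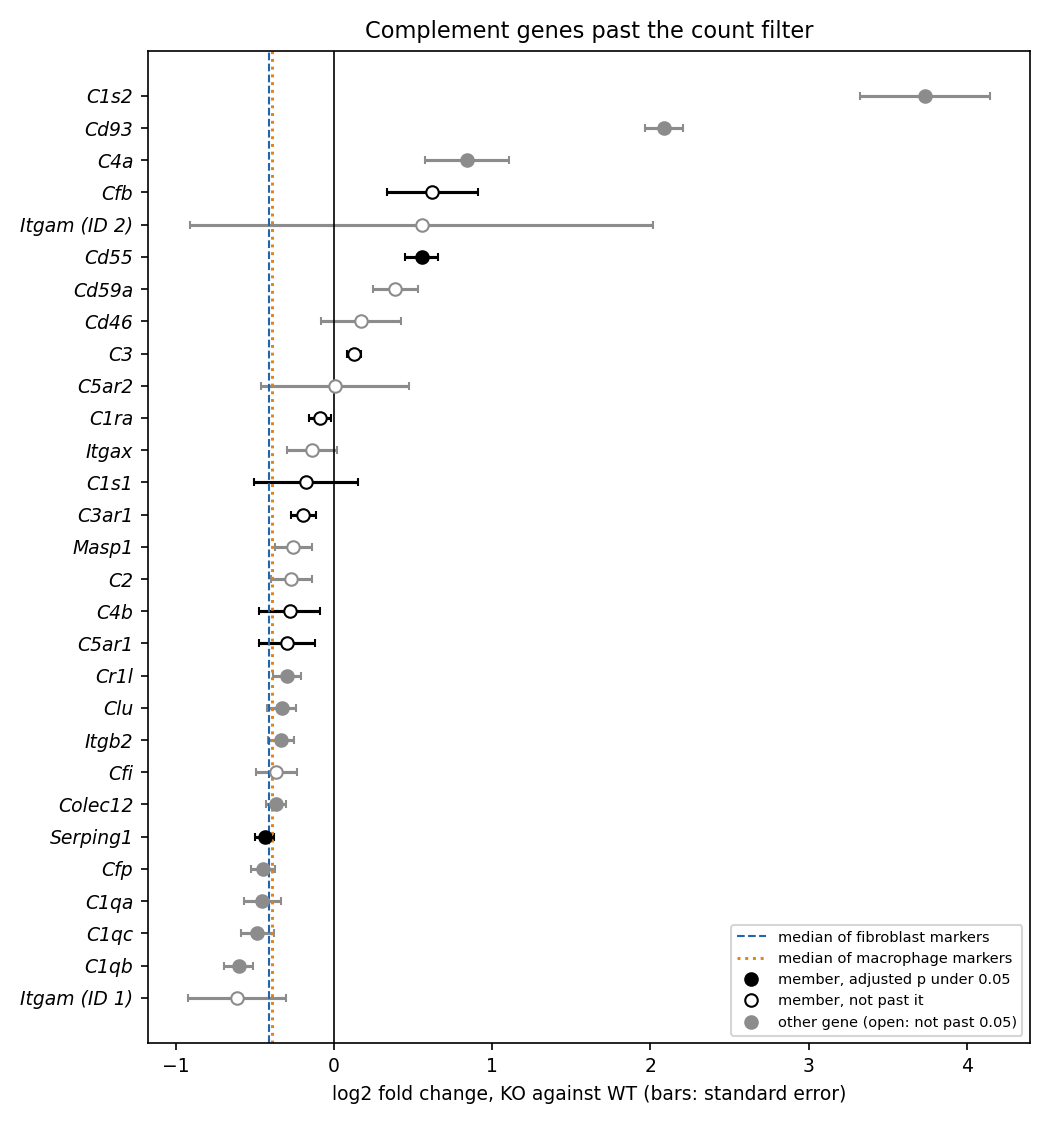
Log2 fold change, KO against WT, with its standard error, for complement genes that passed the count filter, without 1 that is not reported here; black marks the 9 genes described in full, grey the others, and filled points have an edgeR adjusted p under 0.05. The dashed and dotted lines are the medians of the fibroblast (-0.41) and macrophage (-0.39) markers, the latter list holding the C1q genes; *Serping1* lies at -0.44 and *C1qb*, below both lines, at -0.60.

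Scaling to marker genes moved all genes upward together. With libraries scaled to the fibroblast markers, the median of all genes moved to 0.41, and with the macrophage markers to 0.37. Under both, *C4b*, *C1ra*, *C1s1*, *C3ar1* and *C5ar1* changed from below 0 to above 0, *Cd55* and *C3* stayed above 0, and *Serping1* was near 0. Relative to the shifted medians, *Serping1* (-0.02 and -0.05) and these 5 genes remained below, while *Cd55* (0.98 and 0.94) and *C3* (0.55 and 0.51) remained above.

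**Figure D5:**
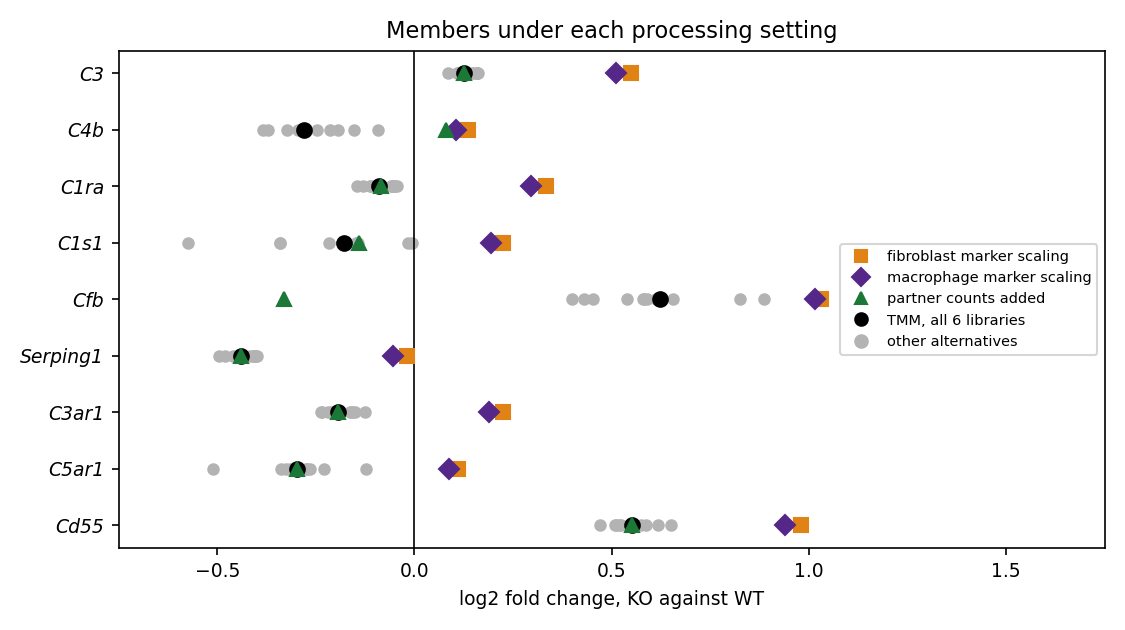
Log2 fold change, KO against WT, of each of the 9 genes under every processing setting; the black point is the value with TMM scaling and all 6 libraries. Scaling to fibroblast or macrophage markers moved all genes upward, adding the counts of overlapping or near-copy genes took *Cfb* from 0.62 to -0.33, and *Cd55* stayed above 0 throughout.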

How the data were processed

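Libraries were oligo(dT)-enriched and stranded, and were sequenced as paired-end reads on an Illumina NovaSeq. The authors deposited 1 table of raw counts and FPKM per gene and library, aligned with HISAT2 to mm10 per the submitters' processing notes; the counting tool and its strand setting are not given in the sources used here. Counts were tested with edgeR 4.0.16 (quasi-likelihood, filterByExpr, TMM, Benjamini-Hochberg, threshold 0.05) in R 4.3.3, without covariates. The deposited FPKM values were used for levels and within-library ratios. CPM values are TMM-scaled except where stated. On simulated data for KO against WT (13899 genes, 200 changed 2-fold) edgeR recovered 94%, with 6.47% of its calls false. The changed genes were drawn only from those above a minimum expected count. The recovered share therefore does not cover smaller shifts or low-count genes such as *C4b*.

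The 9 genes and the lists were chosen with earlier results of these data known. Every one of the 9 was named, other complement genes were named when called or at a mean of at least 10 FPKM, and for *C3* and *C3ar1* the 3 most similar profiles were named. Those named outside this rule (*C1rb*, *C2*, *Masp1*, *Cfi*, *Cd59a*, *Cd46*, *Itgam*, *Itgax*, *C5ar2*, *Hc*, *C6*, *C7*, *C8b*) were chosen after their values were seen. One complement gene and 1 marker gene enter the counts and medians but are not reported here by name. Alternatives were other filters (none, or a mean CPM of at least 1) and scalings, DESeq2 1.42.0, limma 3.58.1 on log2(FPKM + 1) and log2(FPKM + 0.1), a replicate block and leaving out each library. Summing counts of overlapping or near-copy genes was added after the data were seen. Sequences and exon numbers came from GENCODE M21 transcripts, compared in 150-base windows.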

Additional observations from a re-analysis of the deposited data

How the results depend on the processing

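*Cd55* kept its direction and call in every setting run. Genes called numbered 4248, but 8832 and 8304 with fibroblast and macrophage marker scaling, under which 99.5% and 99.4% of calls were higher, against 58.6% with TMM scaling; upper quartile scaling gave 49.4%. Of the 9 complement genes, 1 was called higher, but 2 with library size scaling, with limma at either pseudocount and with the replicate block, 5 with fibroblast and 4 with macrophage marker scaling. One was called lower, but 0 with either marker scaling. Leaving out single libraries gave 1 to 2 higher (2 without KO-1, through *Cfb*, or without KO-2, through *C3*) and 1 to 2 lower (2 without KO-2, through *C5ar1*). Of the other complement genes, 9 were called lower, 0 with either marker scaling and 4 to 9 with a library left out (4 without WT-3, 5 without KO-3). The 3 called higher were 2 without a count filter, with DESeq2, upper quartile scaling or the replicate block and with any library but WT-1 left out, 4 with either marker scaling, and 1 when partner counts were added, since *C1s2* and *C4a* were then merged into their copies. Fold changes that turned were, with fibroblast and macrophage marker scaling, *C4b* (0.14, 0.10), *C1ra* (0.33, 0.30), *C1s1* (0.22, 0.19), *C3ar1* (0.22, 0.19) and *C5ar1* (0.11, 0.087); with a library left out, *C1s1* (-0.58 without KO-2 to 0.21 without WT-3); and with partner counts added, *C4b* (0.081) and *Cfb* (-0.33). Deviations of same-numbered KO and WT libraries from their genotype means correlated at 0.0021, 0.0032 and 0.0347. Differently numbered libraries were not compared, so these values cannot settle whether the libraries were paired by number. The replicate block gave 3907 calls in all and brought *C3* to an adjusted p of 0.0478 (edgeR). Where no cause is given above, the cause was not tested. Depth limits *C4b*, *C4a* and *C1s2*, which had at most 66 counts in a library.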
